A study of Bos taurus with 4 samples.

Results

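Molecular chaperones and protein folding enzymes were followed in bovine gamma delta T cells exposed to an apple polyphenol extract (APP). Members were all genes named singly by the platform's probe table whose symbol belongs to the heat shock protein, J-domain (DNAJ), TRiC chaperonin (CCT), BAG, protein disulfide isomerase (PDIA), FKBP, cyclophilin (PPIA to PPIH) or prefoldin (PFDN) families, together with TCP1, CALR, CANX, STIP1, AHSA1 and SERPINH1 where measured. The rule uses symbols and no measured value, and it gave 91 of the 9155 genes on the arrays, read by 137 probe sets. By their known location, 59 members act in the cytosol or nucleus, 23 in the endoplasmic reticulum and 7 in mitochondria, and 2 (DNAJC22 and HSPG2) were placed in none of these. TCP1 and CCT7, which complete the TRiC complex, were not analysed here. HSPG2, which the symbol rule brings in, encodes the matrix proteoglycan perlecan and is no chaperone.

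Gamma delta T cells were sorted from calf blood by flow cytometry to over 97% purity, and after a night of rest they received either phosphate-buffered saline (PBS, the vehicle) or an aqueous APP extract at 42.2 µg/ml for 4 h. Each treatment was applied to cells of calf 301 and of calf 303, so that each group holds 2 arrays and each animal is its own control. The labels give the calves' age as 1 to 6 months, and the design text calls them neonatal. The sources used here give no breed, array batch or composition of the extract. In bulk RNA of this kind, a shift in the mix of cells and a shift in RNA per cell cannot be told apart.

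Chaperones bind unfolded or partly folded proteins and let them fold through cycles of ATP binding and release. In the cytosol, HSP70 proteins take clients from J-domain cochaperones and pass them on to HSP90, while the ring-shaped TRiC complex folds actin and tubulin that prefoldin delivers to it. The endoplasmic reticulum has its own set, with the HSP70 protein BiP, the HSP90 protein GRP94, the lectin chaperones calnexin and calreticulin and the disulfide isomerases, which together fold secreted and surface proteins, and mitochondria fold imported proteins with mortalin and the HSP60 ring. Activated lymphocytes raise protein synthesis and so place a load on these systems.

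Every value is a log2 ratio of a gene's signal in an array to the median of its 4 arrays, so that differences between arrays can be read while the level of a gene, and with it the check of the labelled cell type by level, is lost. Values are given for calf 301 and then calf 303, a change is APP minus PBS within a calf, and means carry the SD over the 2 calves. The test was limma with the calf as a block, with Benjamini-Hochberg adjustment over all 9155 genes and a threshold of 0.05. The bacterial hybridization controls (7 probe sets) read 0.78 (calf 301) and 0.93 (calf 303) higher in the APP arrays. Their labelled transcripts are meant to be added in a fixed amount to the hybridization mix, not to the cells' RNA. They therefore do not measure RNA per cell. Scaling the arrays to them moves every change down by 0.85 and the median of all genes from 0.01 to -0.84. Values on that scale are called control-scaled below, and which scale holds was not tested.

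More members rose than fell. Of the 91, 44 rose (48.4%), 18 fell (19.8%) and 29 did not pass, where 23.0% of all genes rose and 29.7% fell. The members' median change was 0.24 (0.23 in calf 301 and 0.26 in calf 303) against 0.01 for all genes. Control-scaled, it was -0.61 against -0.84 for all genes, and 3 members rose (BAG4, BAG2 and CCT5) and 64 fell. Above 0 on that scale lay 13 of the 91 members and 499 of the 9155 genes. The share of all genes that passed on that scale is not given here. Changes ran from -1.55 for FKBP14 to 1.93 for BAG4, and the members' quartiles were -0.12 and 0.71, against -0.40 and 0.27 for all genes. The members' median absolute change was 0.48, against 0.32 for all genes. In both calves alike, 3 members rose 2-fold or more (BAG4, CCT3 and CCT5; 3.3%, against 3.5% of all genes) and 4 fell 2-fold or more (HSPBAP1, FKBP14, DNAJC18 and DNAJC10; 4.4%, against 6.29%). The APP and PBS arrays did not overlap in 70 members (76.9%, against 73.8% of all genes), and the 62 members that passed were all among these. Fits on 3 arrays, which have no block, gave fewer calls. The share of all genes that passed in these fits, or in the fit of all 4 arrays without the block, is not given here. Counts from them, here and below, do not show whether members held up better or worse than other genes. Upward there were 29 without the APP array of calf 301, 27 without the PBS array of calf 301 and 25 without the PBS array of calf 303, and downward 10 without each of these arrays. In total 23 rises and 9 falls passed in every one of the 4 fits on 3 arrays and in the fit of all 4 arrays without the block.

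**Figure D1:**
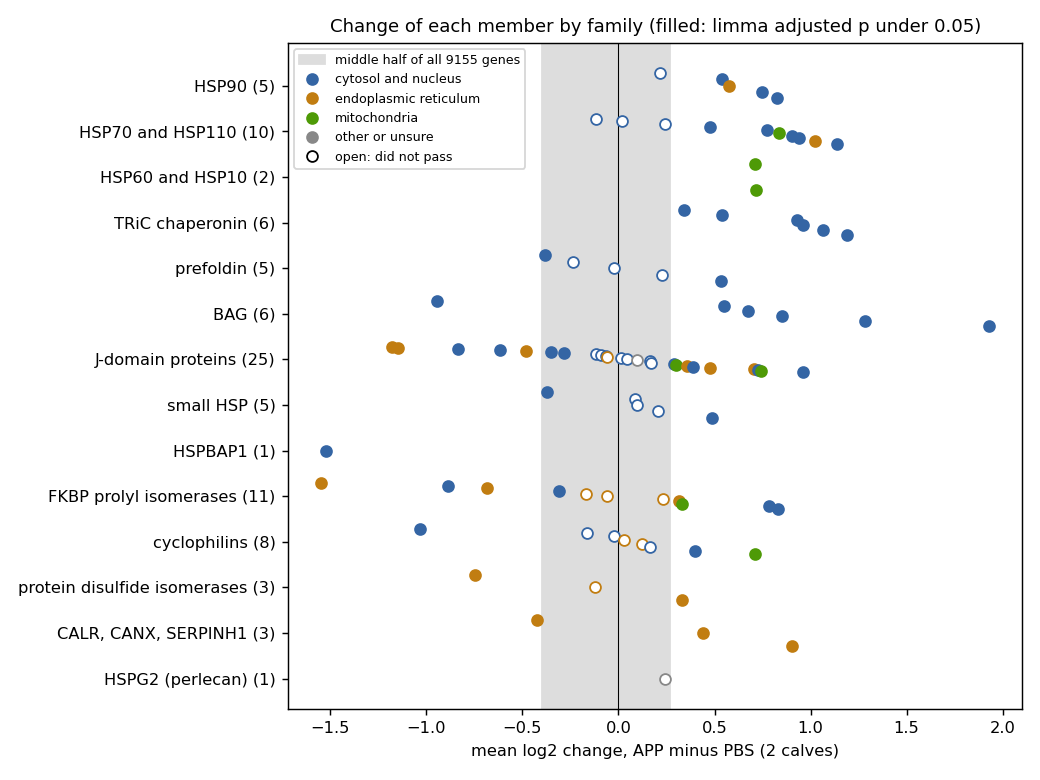
Mean log2 change (APP minus PBS, 2 calves) of each of the 91 members, by family, with the number of measured members in brackets. Colours give the compartment, filled points passed limma at an adjusted p under 0.05, and the grey band runs between the quartiles of all 9155 genes, from -0.40 to 0.27. All 6 TRiC subunits lie to the right of the band (0.34 to 1.19), while the J-domain proteins spread from -1.18 to 0.96; on the control-scaled axis every point would sit 0.85 further left.

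Of 8 cytosolic genes of the HSP70 and HSP110 group, 5 rose, none fell and 3 did not pass, with a median of 0.63 that was -0.23 when control-scaled. The stress-inducible HSPA1A was among those that did not pass. HSPA8 encodes HSC70, the constitutive HSP70 of the cytosol. It stood at -0.40 and -0.16 in the PBS arrays and at 0.12 and 0.28 in the APP arrays. Both APP arrays were the higher ones, with a gap between the groups of about the distance between the calves. HSPA8 rose by 0.48 ± 0.06 (limma adjusted p = 0.0054; -0.37 when control-scaled), a call that was lost in each of the 4 fits on 3 arrays. HSPA2, another HSP70 family member best known from the testis, read -0.54 and -0.55 with PBS and 0.36 and 0.82 with APP. The PBS arrays of the calves coincided and the APP arrays lay apart, and the rise was 0.91 and 1.37 (mean 1.14 ± 0.33, limma adjusted p = 0.000397).

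HSPA1A, the classical heat-inducible HSP70, stood at 0.03 and 0.12 with PBS and at -0.22 and 0.13 with APP. Its groups overlapped, the change was -0.25 in calf 301 and 0.01 in calf 303, and the mean of -0.12 ± 0.18 did not pass (limma adjusted p = 0.383). This mean covers 6 probe sets that went opposite ways. In the fit over single probe sets, 4 fell (-0.70, -0.52, -0.44 and -0.37), 1 rose (0.93) and 1 did not pass (0.38). Of the 6, 4 carry the gene identifier that RefSeq lists for HSPA1A and 2 another one, and HSPA1A has near-identical copies, so that its values are uncertain.

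The nucleotide exchange factors, which make HSP70 let go of its client, mostly rose. HSPH1 encodes HSP110 and read -0.48 and -0.49 with PBS and 0.60 and 0.31 with APP. The APP arrays were the higher ones in both animals, more so in calf 301. HSPH1 rose by 1.08 and 0.80 (mean 0.94 ± 0.20, limma adjusted p = 0.000433; 0.48 to 1.29 over its 4 probe sets), HSPA4, of the same HSP110 family, by 0.77 ± 0.05 (adjusted p = 0.000575) and HSPBP1 by 0.90 ± 0.13 (adjusted p = 0.000361). HSPA14, which works at the ribosome, changed by 0.24 and the distant relative HSPA12B by 0.02, and neither passed.

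BAG proteins bind HSP70 and couple it to other pathways, and 5 of the 6 measured rose while BAG3 fell (median 0.76, -0.09 when control-scaled). BAG4, also known as silencer of death domains, holds TNF receptor family death domains inactive. It read -1.29 and -1.08 with PBS and 0.90 and 0.60 with APP. Both APP arrays thus stood well clear of both PBS arrays. BAG4 rose by 2.18 and 1.68 (mean 1.93 ± 0.36, 3.81-fold, limma adjusted p = 5.72e-05), ranked 102 among rises of all genes, and stayed at 1.08 when control-scaled. BAG2, an inhibitor of the ubiquitin ligase CHIP, read -0.50 and -1.05 with PBS and 0.33 and 0.69 with APP. The calves differed in size but not in direction, with rises of 0.83 and 1.74 (mean 1.28 ± 0.64, limma adjusted p = 0.00163; 0.43 when control-scaled).

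BAG3 links HSP70 to selective autophagy and is known as a target of the heat shock factor HSF1. It stood at 0.58 and 0.34 with PBS and at -0.46 and -0.51 with APP, so both APP arrays were the lower ones. It fell by 1.05 and 0.84 (mean -0.94 ± 0.14, limma adjusted p = 0.000316). HSPB8, the small heat shock protein that pairs with BAG3, changed by 0.10 ± 0.14 and did not pass. Of the remaining BAG proteins BAG5 rose by 0.85, BAG1 by 0.67 and BAG6, which guides tail-anchored proteins, by 0.55 (-0.11 to 0.97 over its 4 probe sets). The BAG5 call was lost without the PBS array of calf 303 and the BAG6 call without the PBS array of calf 301.

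J-domain proteins select the clients of HSP70, and as a group they went both ways. Among 15 of the cytosol and nucleus, 4 rose, 4 fell and 7 did not pass, with a median of 0.01 (-0.84 when control-scaled). The general cochaperones behaved unequally. DNAJB1, the stress-inducible HSP40, stood at -0.38 and -0.10 with PBS and at 0.11 and 0.19 with APP. Both APP arrays were higher, and the PBS arrays lay further apart than the APP arrays did. DNAJB1 rose by 0.39 ± 0.14 (limma adjusted p = 0.0166; -0.46 when control-scaled), a call that was lost without the block and in all 4 fits on 3 arrays, and its probe sets read -0.03 and 0.81. DNAJA1, the abundant constitutive HSP40, changed by 0.04 ± 0.02 (adjusted p = 0.721).

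The other cytosolic J proteins that rose were DNAJB6, a suppressor of protein aggregation, by 0.96 ± 0.02 (limma adjusted p = 0.000211; 0.11 when control-scaled), DNAJC5, the cysteine string protein of secretory vesicles, by 0.73 ± 0.15 (0.21 and 1.24 for its probe sets) and DNAJB5 by 0.29 ± 0.09. Those that fell were DNAJC9, a histone chaperone, by 0.84 ± 0.04 (adjusted p = 0.000403), DNAJC17, a nuclear protein, by 0.62 ± 0.10, DNAJC13, which acts on endosomes, by 0.35 ± 0.04 and DNAJB2 by 0.29 ± 0.02. Calls at the lower end of this range were the least stable. DNAJB5 and DNAJB2 were lost without the block, and DNAJB2 also in the fit over single probe sets. Both of these and DNAJC13 were lost in all 4 fits on 3 arrays, and DNAJC17 without the PBS array of calf 303.

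Both cytosolic HSP90 genes rose to nearly the same extent. HSP90AA1, the inducible form, read -0.30 and -0.46 with PBS and 0.41 and 0.32 with APP. HSP90AB1, the constitutive form, read -0.55 and -0.43 with PBS and 0.31 and 0.36 with APP. In each gene the APP arrays of both animals lay above both PBS arrays, and the calves were close together. The rise was 0.75 ± 0.05 for HSP90AA1 (limma adjusted p = 0.000681; 0.56 and 0.94 for its probe sets) and 0.83 ± 0.04 for HSP90AB1 (adjusted p = 0.000419), while control-scaled values were -0.10 and -0.03. HSP90AB1 is read by a single probe set of a type that can bind several transcripts of a family.

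The HSP90 cochaperones did not move as one. STIP1 (HOP), which hands clients from HSP70 to HSP90, rose by 0.54 ± 0.04 (limma adjusted p = 0.0031, lost without the PBS array of calf 301 and without the APP array of calf 303), and AHSA1, which stimulates the HSP90 ATPase, changed by 0.214 ± 0.004 without passing (adjusted p = 0.0978). The paired immunophilins FKBP4 (FKBP52) and FKBP5 (FKBP51), which promote and hold back steroid receptor activity, changed in opposite directions on the deposited scale. FKBP4 rose by 0.78 ± 0.20 (limma adjusted p = 0.000997) and FKBP5 fell by 0.31 ± 0.05 (adjusted p = 0.0317). Control-scaled changes were -0.07 for FKBP4 and -1.16 for FKBP5, no longer opposite, and -0.31 for STIP1. The fall of FKBP5 was lost without the block, in the fit over single probe sets and in all 4 fits on 3 arrays. PPID (cyclophilin 40), the third immunophilin of the complex, had a mean change of -0.02 over a probe set that fell by 0.57 and one that rose by 0.53.

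All 6 measured subunits of the TRiC chaperonin rose, with a median of 0.95 (0.09 when control-scaled, with CCT4 and CCT8 below 0). CCT5 stood at -0.65 and -0.75 with PBS and at 0.42 and 0.57 with APP. CCT3 stood at -0.66 and -0.59 with PBS and at 0.39 and 0.48 with APP. In both subunits the calves nearly coincided within each treatment and the groups were far apart. CCT5 rose by 1.06 and 1.32 (mean 1.19 ± 0.18, 2.28-fold, limma adjusted p = 0.000141) and CCT3 by 1.07 ± 0.01 (2.09-fold, adjusted p = 0.000136). CCT2 (0.96 ± 0.09) and CCT6A (0.93 ± 0.01) followed closely. Smaller rises were seen in CCT8 (0.54 ± 0.15) and CCT4 (0.34 ± 0.02). TRiC rings are built from all subunits in equal number. The CCT4 call was lost in all 4 fits on 3 arrays and that of CCT8 in 3 of them, those without the APP array of calf 303, the PBS array of calf 301 and the PBS array of calf 303.

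Prefoldin, which passes unfolded actin and tubulin to TRiC, went both ways. Of 5 measured subunits with a PFDN symbol, PFDN6 rose by 0.53 ± 0.17 (limma adjusted p = 0.00511), PFDN1 fell by 0.38 ± 0.06 (adjusted p = 0.0134), and PFDN2 (0.23), PFDN4 (-0.03) and PFDN5 (-0.24) did not pass. VBP1, the remaining subunit, whose symbol lies outside the rule, rose by 1.06 ± 0.09 (adjusted p = 0.000157; 0.21 when control-scaled). The call of PFDN1 was lost without the block, and those of PFDN1 and PFDN6 each held in only 1 of 4 fits on 3 arrays, the one without the APP array of calf 303.

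Small heat shock proteins hold unfolded clients without using ATP. Of 5 measured, HSPB2 rose (0.49 ± 0.10, limma adjusted p = 0.00552), HSPB1 fell, and HSPB3 (0.08), HSPB6 (0.21) and HSPB8 did not pass. HSPB1, or HSP27, stood at 0.11 and 0.20 with PBS and at -0.35 and -0.08 with APP. Both APP arrays were lower, but this mean hides a disagreement between its 2 probe sets, one of which fell by 1.11 while the other stood at 0.36 and did not pass. The mean fell by 0.37 ± 0.13 (limma adjusted p = 0.0184), a call that was lost without the block and without the APP array of calf 301 or either PBS array. The HSPB2 call was lost without those same arrays.

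HSPBAP1, an oxygenase-like protein named for binding HSPB1, had the largest fall of the cytosolic members. It stood at 0.55 and 0.57 with PBS and at -0.99 and -0.93 with APP. The calves agreed to within 0.06 in each treatment, and the groups were far apart. HSPBAP1 fell by 1.52 ± 0.03 (2.87-fold, limma adjusted p = 3.89e-05).

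**Figure D2:**
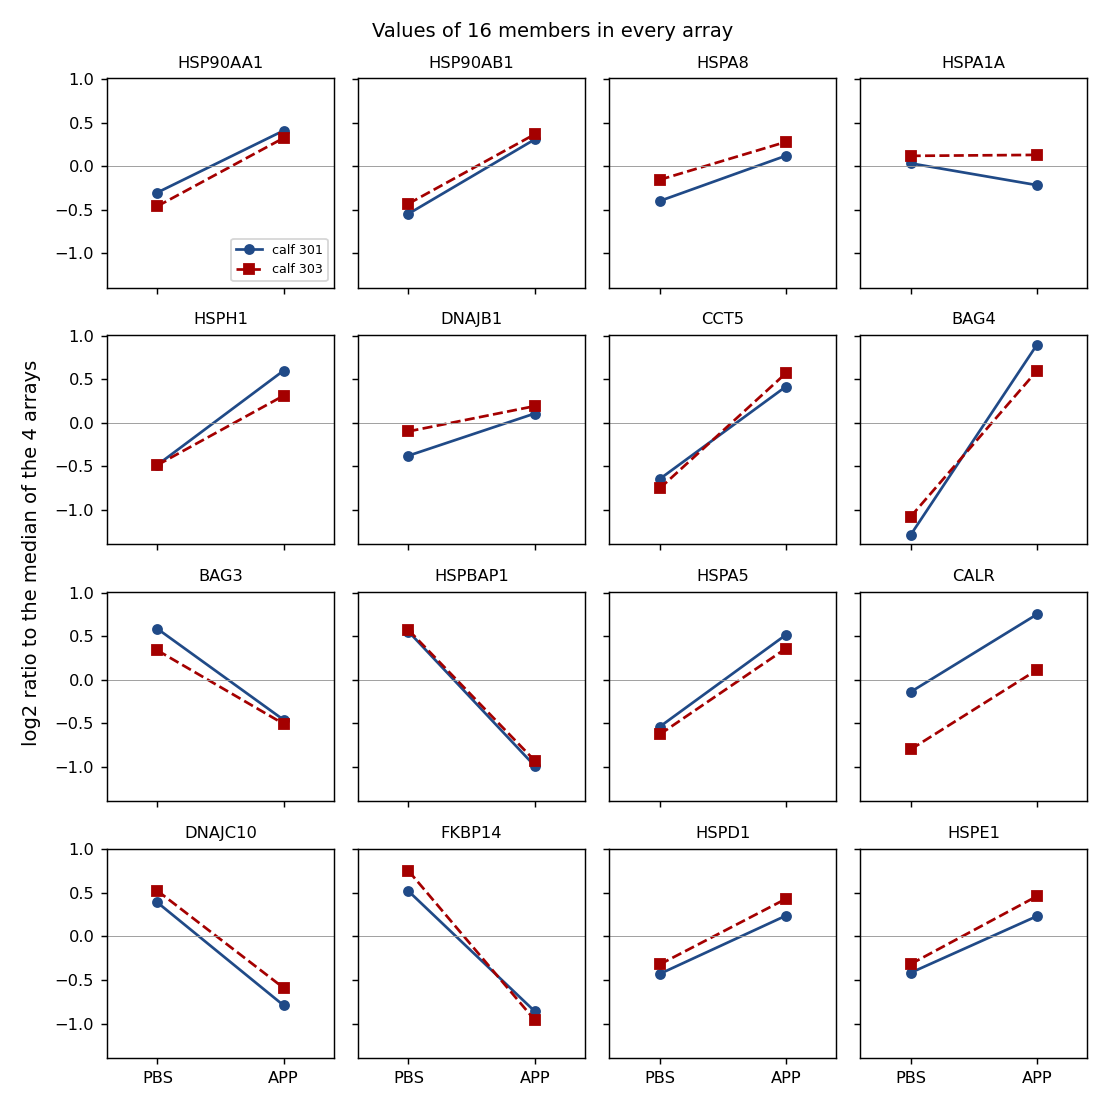
Values of 16 members in each of the 4 arrays, as the log2 ratio to the gene's median over the arrays; circles with solid lines are calf 301, squares with broken lines calf 303. Lines run parallel for most genes; HSPA1A has no common direction (-0.25 and 0.01), and CALR stands lower in calf 303 with both treatments (-0.80 and 0.11 against -0.14 and 0.75). Control-scaled changes would be 0.85 lower in each panel.

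The prolyl isomerases of the cytosol and nucleus, which turn proline bonds and are the targets of immunosuppressants, split by gene. FKBP1A (FKBP12), the receptor of tacrolimus and rapamycin in T cells, rose by 0.83 ± 0.05 (limma adjusted p = 0.000409; -0.02 when control-scaled). PPIA (cyclophilin A), the receptor of cyclosporin, read -0.05 and -0.18 with PBS and 0.06 and 0.03 with APP. Its APP arrays were the higher ones by a narrow margin, and the change of 0.16 ± 0.07 did not pass (limma adjusted p = 0.196).

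Of 4 nuclear isomerases, 2 fell, 1 rose and 1 did not pass. PPIG, a cyclophilin with a serine and arginine rich tail that is tied to splicing, read 0.52 and 0.33 with PBS and -0.78 and -0.43 with APP. Both APP arrays were the lower ones, and calf 301 moved further. PPIG fell by 1.03 ± 0.38 (-1.298 and -0.763, limma adjusted p = 0.000874). FKBP3, the nuclear FKBP25, read 0.34 and 0.36 with PBS and -0.61 and -0.47 with APP. The calves lay close together within each treatment, and FKBP3 fell by 0.88 ± 0.09 (limma adjusted p = 0.000344). Of the spliceosomal cyclophilins PPIH rose by 0.40 ± 0.17 (adjusted p = 0.0168, lost in all 4 fits on 3 arrays) and PPIE changed by -0.16 ± 0.18 without passing.

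Counted over the whole compartment, 28 of 59 members of the cytosol and nucleus rose (47.5%, against 23.0% of all genes) and 11 fell (18.6%, against 29.7%). The median was 0.23. Control-scaled, it was -0.62 (-0.84 for all genes), with 3 that rose and 41 that fell. There were 18 rises without the PBS array of calf 301. The falls came to 7 without the block, to 6 without the APP or without the PBS array of calf 301, and to 5 without the PBS array of calf 303.

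Of 23 members of the endoplasmic reticulum 9 rose (39.1%, against 23.0% of all genes), 7 fell (30.4%, close to the 29.7% of all genes) and 7 did not pass, with a median of 0.03 (-0.83 when control-scaled, with none that rose and 19 that fell). The main folding chaperones of the lumen were among those that rose, and several J proteins and isomerases were among those that fell. The count of rises was sensitive to the fit. It came to 4 without the block, and to 3 without the APP array of calf 301, 4 without the PBS array of calf 301 and 2 without the PBS array of calf 303; the falls came to 4 without either array of calf 301.

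HSPA5 encodes BiP, the HSP70 protein of the lumen and the usual marker of the unfolded protein response. It stood at -0.54 and -0.63 with PBS and at 0.51 and 0.36 with APP. The groups were well separated in both animals. HSPA5 rose by 1.06 and 0.99 (mean 1.02 ± 0.05, 2.03-fold, limma adjusted p = 0.00017; 0.17 when control-scaled), and its 3 probe sets read 0.39, 1.21 and 1.47. HSP90B1 encodes GRP94, which folds Toll-like receptors and integrins. It read -0.31 and -0.25 with PBS and 0.19 and 0.40 with APP. Again both APP arrays were the higher ones, and HSP90B1 rose by 0.58 ± 0.11 (limma adjusted p = 0.00276; -0.28 when control-scaled), a call that was lost without either PBS array.

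Among 7 J proteins of this compartment 3 rose, 3 fell and 1 did not pass. The 3 that rose are cochaperones of BiP, and so is DNAJC10, which fell. DNAJC3 (P58IPK), which also inhibits the kinase PERK, read -0.41 and -0.38 with PBS and 0.33 and 0.29 with APP. The calves were close together, and DNAJC3 rose by 0.70 ± 0.06 (limma adjusted p = 0.000914; -0.15 when control-scaled). DNAJB11 (ERdj3) read -0.11 and -0.64 with PBS and 0.07 and 0.14 with APP. Its PBS arrays differed more than its treatments did in calf 301, with rises of 0.18 and 0.78 (mean 0.48 ± 0.42, limma adjusted p = 0.0306; -0.37 when control-scaled). That call was lost without the block, in the fit over single probe sets and in 3 of the 4 fits on 3 arrays, those without either APP array and without the PBS array of calf 303. DNAJB9 (ERdj4) rose by 0.36 ± 0.17 (limma adjusted p = 0.0254). This call was lost without the block, in the fit over single probe sets and in all 4 fits on 3 arrays.

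The falls of DNAJC18 and DNAJC10 were larger than these rises. DNAJC18, a J protein of the reticulum membrane, stood at 0.37 and 0.61 with PBS and at -0.84 and -0.53 with APP. DNAJC10 (ERdj5), a reductase that breaks disulfide bonds of proteins bound for degradation, stood at 0.39 and 0.52 with PBS and at -0.79 and -0.59 with APP. For both genes the APP arrays were the lower ones in each animal by over 2-fold. DNAJC18 fell by 1.22 and 1.14 (mean -1.18 ± 0.06, limma adjusted p = 9.52e-05) and DNAJC10 by 1.18 and 1.11 (mean -1.15 ± 0.05, adjusted p = 0.000104), with 3 probe sets of DNAJC10 that all fell (-1.40, -1.26 and -0.79). DNAJC14 fell by 0.48 ± 0.14, a call that held in 1 of the 4 fits on 3 arrays, the one without the APP array of calf 303, and DNAJB12 (-0.06) did not pass.

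In the calnexin cycle, which retains glycoproteins until they are folded, the 2 lectins rose and their disulfide isomerase did not pass. CALR (calreticulin) read -0.14 and -0.80 with PBS and 0.75 and 0.11 with APP. Calf 303 was lower than calf 301 under both treatments, while the rise was alike in the animals, 0.89 and 0.91 (mean 0.90 ± 0.02, limma adjusted p = 0.000279; 0.05 when control-scaled). Without the block, without the APP array of calf 301 or without the PBS array of calf 303 this call was lost. CANX (calnexin) read -0.13 and -0.24 with PBS and 0.39 and 0.12 with APP. Both APP arrays were higher, with a rise of 0.44 ± 0.10 (limma adjusted p = 0.0088; -0.41 when control-scaled) that was lost without the APP array of calf 301 or either PBS array and that averages probe sets at 0.62, 0.88 and -0.19.

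PDIA3 (ERp57), the disulfide isomerase that calnexin and calreticulin recruit, stood at 0.08 and 0.00 with PBS and at -0.02 and -0.14 with APP. Its groups did not overlap but lay close together, and the change of -0.12 ± 0.03 did not pass (limma adjusted p = 0.315). PDIA4 (ERp72) stood at 0.46 and 0.28 with PBS and at -0.35 and -0.41 with APP. Its arrays separated clearly by treatment, and PDIA4 fell by 0.81 and 0.69 (mean -0.75 ± 0.09, limma adjusted p = 0.000742), with probe sets at -1.20, -0.96 and -0.08. PDIA5 rose by 0.33 ± 0.10 (adjusted p = 0.0262; 0.01 to 0.55 over its 3 probe sets), a call that was lost without the block and in all 4 fits on 3 arrays.

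Of the remaining 9 members of the reticulum, 6 FKBP prolyl isomerases, 2 cyclophilins and SERPINH1, 3 fell, 1 rose and 5 did not pass. FKBP14 (FKBP22), a prolyl isomerase that acts on collagens, read 0.52 and 0.75 with PBS and -0.86 and -0.96 with APP. Its APP arrays lay far below both PBS arrays, and FKBP14, with the largest fall of all members, fell by 1.38 and 1.71 (mean -1.55 ± 0.24, 2.92-fold, limma adjusted p = 6.63e-05). FKBP7 fell by 0.68 ± 0.31 (adjusted p = 0.00379, kept in 1 of 4 fits on 3 arrays, the one without the PBS array of calf 303) and SERPINH1 (HSP47), the collagen chaperone, by 0.43 ± 0.16 (adjusted p = 0.0122, lost in all 4). FKBP9 (0.23), FKBP10 (-0.06), FKBP11 (-0.17) and the cyclophilins PPIB (0.03) and PPIC (0.13) did not pass, and FKBP2 rose by 0.31 ± 0.06 (-0.06 and 0.69 for its probe sets; lost without the block and in all 4 fits on 3 arrays).

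All 7 mitochondrial members rose, where 23.0% of all genes did, with a median of 0.71. Control-scaled, the median was -0.14, none rose and 2 fell (FKBP8 and DNAJC11). HSPA9 encodes mortalin, the HSP70 protein that pulls imported proteins into the matrix. It stood at -0.45 and -0.53 with PBS and at 0.34 and 0.36 with APP. The groups were well apart and the calves nearly equal, with a rise of 0.78 and 0.89 (mean 0.84 ± 0.08, limma adjusted p = 0.000423; 0.42 and 1.26 for its probe sets; -0.01 when control-scaled). DNAJA3 (TID1), its J-domain partner, read -0.27 and -0.50 with PBS and 0.51 and 0.21 with APP. Both APP arrays were higher, and DNAJA3 rose by 0.74 ± 0.05 (limma adjusted p = 0.000694; -0.11 when control-scaled), a call that was lost without the PBS array of calf 303.

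HSPD1 (HSP60) and HSPE1 (HSP10) form the barrel and the lid of one folding chamber, and they moved alike. HSPD1 stood at -0.43 and -0.32 with PBS and at 0.24 and 0.43 with APP. HSPE1 stood at -0.42 and -0.32 with PBS and at 0.23 and 0.46 with APP. In every array the pair differed by no more than 0.03, and both genes were higher with APP in both calves. HSPD1 rose by 0.71 ± 0.06 (limma adjusted p = 0.000873; -0.14 when control-scaled) and HSPE1 by 0.71 ± 0.09 (adjusted p = 0.000929; -0.14 when control-scaled). They are the only pair of members that are next to each other among protein-coding genes of the RefSeq assembly ARS-UCD2.0, and the mammalian pair is known to share a promoter region from which the genes are read outward.

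PPIF (cyclophilin D), which regulates the mitochondrial permeability transition pore, read -0.35 and -0.49 with PBS and 0.25 and 0.32 with APP. Both APP arrays stood above both PBS arrays, and PPIF rose by 0.71 ± 0.15 (limma adjusted p = 0.00118; -0.14 when control-scaled). Smaller rises were measured for FKBP8 (0.33 ± 0.13), which sits in the outer membrane, and DNAJC11 (0.30 ± 0.06), which belongs to the machinery that shapes the cristae. The calls of FKBP8 and DNAJC11 were lost without the block, in the fit over single probe sets and in all 4 fits on 3 arrays, and the compartment's count was 5 without the block and 4 without the PBS array of calf 303.

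In 78 members the change had the same sign in both animals, which includes all 62 that passed, and in 13 it was opposite (14.3%, close to the 15.2% of all genes). The gap between the calves had a median of 0.13 in the members and 0.15 in all genes. Changes correlated between the calves over the 91 members with Pearson's r = 0.93 and Spearman's rho = 0.92, as a description across genes, which are not independent replicates. The largest gaps were those of BAG2 (0.91), DNAJC12 (0.65) and DNAJB11 (0.59), each higher in calf 303. DNAJC12, a J protein that stabilises aromatic amino acid hydroxylases, stood at -0.18 and 0.16 with PBS and at -0.60 and 0.39 with APP. It went down by 0.42 in calf 301 and up by 0.23 in calf 303, so that the groups overlapped and the mean of -0.09 ± 0.46 did not pass (limma adjusted p = 0.646). Apart from the treatment, 1 member differed between the animals, where 1.7% of all genes did. This was CALR, lower by 0.65 in calf 303 (limma adjusted p = 0.0272 for the calf term). When control-scaled, 10 members differed between the animals.

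**Figure D3:**
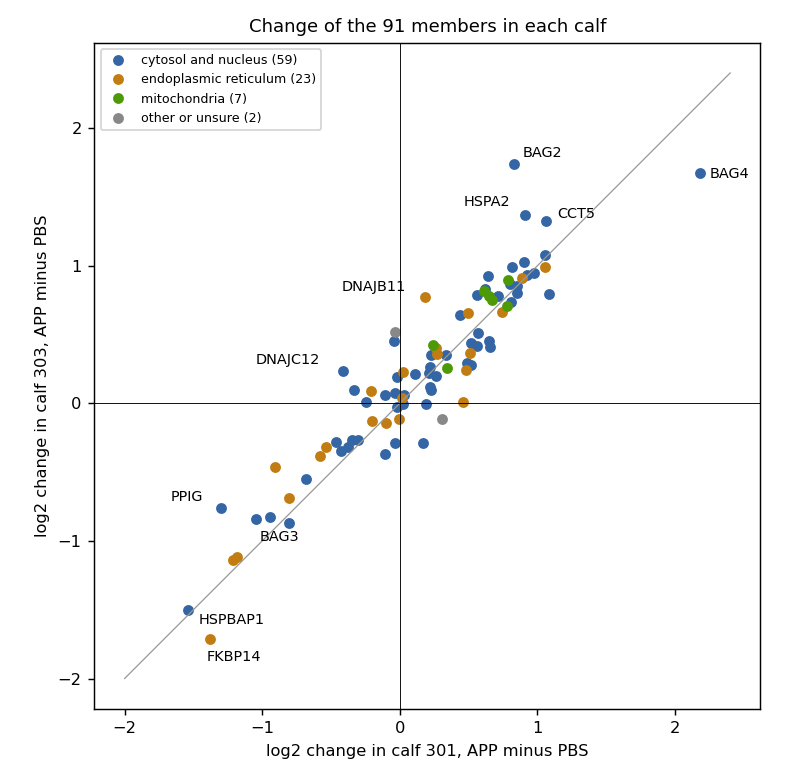
Log2 change (APP minus PBS) of each member in calf 301 (horizontal) and calf 303 (vertical), coloured by compartment; the diagonal marks equal change. Points follow the diagonal, BAG2 lies above it (0.83 and 1.74) and BAG4 below it (2.18 and 1.68), and all 7 mitochondrial members fall in the upper right part; control-scaled values would be lower on both axes.

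How a gene's probe sets agreed bears on the averages above. Of the 91 members, 61 had a single probe set and 30 had several, up to the 6 of HSPA1A. In 17 of the 30 all probe sets had the same sign, and in 17 their changes differed by more than 0.5. The widest spreads belonged to HSPA1A (1.63), HSPB1 (1.47) and PDIA4 (1.12). Probe sets of HSPA1A and of PPID passed in both directions, and in no other member was this so. Over single probe sets, 58 of the 137 rose (42.3%, against 16.3% of all probe sets) and 26 fell, where 23.6% of all probe sets fell.

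**Figure D4:**
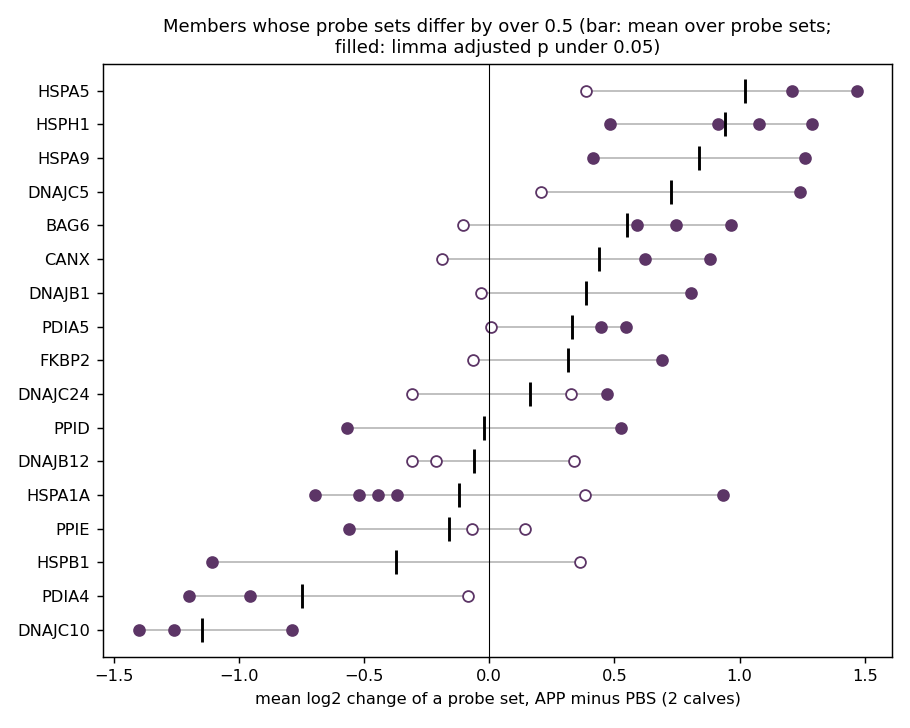
Mean log2 change (APP minus PBS, 2 calves) of each probe set for the 17 members whose probe sets differ by over 0.5; bars give the mean used for the gene, and filled points passed limma over single probe sets at an adjusted p under 0.05. HSPA1A has 4 filled points below 0 and 1 above (0.93), while all probe sets of HSPA5, HSPH1 and HSPA9 lie above 0; control-scaled changes would be 0.85 lower.

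The folding pathways also hold genes outside the families of the rule, and a list of regulators and partner factors was read from the same fit. Of 16 regulators of the heat shock and unfolded protein responses 11 were measured. Of these 2 rose (18.2%, against 23.0% of all genes), 5 fell (45.5%, against 29.7%) and 4 did not pass. HSF1, the main factor behind heat shock gene induction, rose by 0.33 ± 0.09 (limma adjusted p = 0.0272; -0.52 when control-scaled), while HSF2 fell by 0.92 ± 0.22 (adjusted p = 0.000534). CREB3, a transcription factor held in the reticulum membrane, fell by 1.23 ± 0.05 (adjusted p = 8.05e-05), and the proteases MBTPS1 and MBTPS2, which release such factors, fell by 0.27 and 0.33. ATF4 (0.07), DDIT3 (0.03), EIF2AK3 (0.08) and ATF6B (-0.08), which act in the unfolded protein response, did not pass. The mean of EIF2AK3 covers changes of -0.255 in calf 301 and 0.407 in calf 303. XBP1, ATF6 and ERN1, of the same response, were on the list but not among the genes measured.

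Of 52 partner factors 43 were measured, and 17 rose (39.5%, against 23.0% of all genes), 12 fell (27.9%, close to the 29.7% of all genes) and 14 did not pass. TXNDC5, a disulfide isomerase of the reticulum outside the PDIA symbols, rose by 2.80 and 2.78 (mean 2.79 ± 0.02, 6.91-fold, limma adjusted p = 7.78e-06), more than any member and by 1.94 when control-scaled. Other factors of the reticulum that rose were MANF (1.24), CRELD2 (0.99), ERP29 (0.81) and P4HB (0.33), whereas TMX3 (-0.55) and TMX1 (-0.34), which are membrane-bound, fell. HYOU1 (0.24), SDF2L1 (-0.18), SIL1 (0.02) and ERO1A (0.24) did not pass. Of the factors that work with HSP90, CDC37, which brings kinases to it, rose by 1.16, NUDC by 1.00, TTC4 by 0.65 and PTGES3 (p23) by 0.61. UNC45A fell by 0.63, ST13, which bridges HSP70 and HSP90, by 0.43 and CDC37L1 by 0.27, and CHORDC1 (0.09) and the ubiquitin ligase STUB1 (-0.24) did not pass.

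Of 5 measured tubulin cofactors, which take tubulin over from TRiC, 4 fell. TBCE fell by 1.68 ± 0.06 (3.20-fold, limma adjusted p = 2.85e-05), TBCC by 1.01, TBCB by 0.79 and TBCD by 0.60, and TBCA (-0.11) did not pass. In mitochondria TRAP1 (0.65), CLPB (0.65) and the exchange factors GRPEL2 (0.45) and GRPEL1 (0.38) rose, the proteases SPG7 (-0.44) and YME1L1 (-0.33) fell, and CLPP (-0.15) and AFG3L2 (0.19) did not pass. Of the 54 regulators and partners together 19 rose and 17 fell, where 23.0% of all genes rose and 29.7% fell. Control-scaled, 3 rose and 43 fell. The falls came to 10 without the block, and to 6 and 11 without the APP arrays of calves 301 and 303 and 7 without either PBS array, and the rises to 10 and 9 without the PBS arrays of calves 301 and 303.

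**Figure D5:**
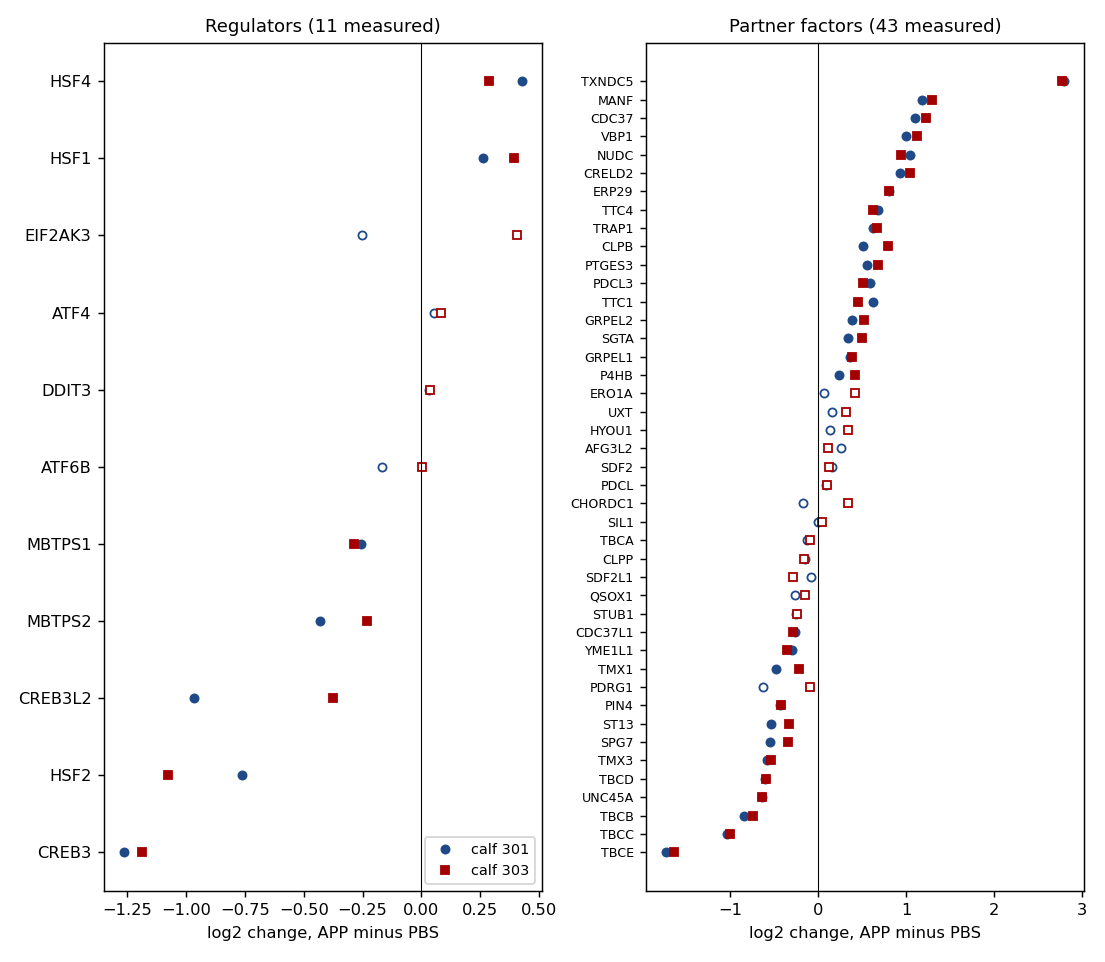
Log2 change (APP minus PBS) in calf 301 (circles) and calf 303 (squares) of the 11 measured regulators and 43 measured partner factors, sorted by mean; filled symbols passed limma at an adjusted p under 0.05. TXNDC5 stands apart at the top (2.80 and 2.78), TBCE lies lowest (mean -1.68), and HSF1 and HSF2 are on opposite sides of 0; control-scaled changes would be 0.85 lower, which puts HSF1 at -0.52.

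Markers of cell types were read in the same comparison. Of 8 measured genes on the gamma delta T cell list 2 rose (CD5 and IL2RG). The 4 that fell were CD3G (by 0.47), CD247 (by 0.53), WC1.3 (by 0.86) and CD163L1 (by 1.08). Of all genes, 23.0% rose and 29.7% fell. Most of this list is shared with other T cells or lymphocytes (CD3D, CD3E, CD3G, CD247, CD5 and IL2RG). The genes more specific to the lineage, WC1.3 and CD163L1, both fell. Of 8 monocyte or dendritic markers 2 rose (CD68 by 2.31 and CD14 by 0.46) and 1 fell (CTSS), of 3 B cell markers 2 fell (CD79A and MS4A1), of 3 natural killer markers 1 rose (KLRD1), of 3 alpha beta T markers CD8A rose by 1.08 and CD8B fell by 0.64, and none of 4 erythroid or platelet markers passed. Their part in the changes of the chaperones was not tested.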

How the data were processed

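Total RNA of the sorted cells was labelled and hybridised to an Affymetrix bovine array, 4 arrays in all. Probe sets were summarised by the authors with RMA, per the submitters' processing notes; the sources used here give no version, options, scan dates or genome build. The deposited values are linear ratios of each probe set's signal to its own median over the arrays, which was found from the values (the mean of the middle pair of each probe set's values lay between 0.98 and 1.00) and is not stated in the labels. They ran from 0.0264 to 6.81. Signal over background is therefore unknown, and the number of arrays limits the precision.

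Ratios were log2 transformed. The 112 control probe sets were left out, and 13292 of 24016 tested probe sets had 1 gene symbol in the platform annotation (86 had several and 10638 none); their log2 values were averaged per gene. The treatment term was fitted in limma (version 3.58.1, run in R 4.3.3; lmFit, then eBayes; two-sided), and the calf entered as a block because both titles of a pair carry that animal's number. As a check of the pairing, the gap between the calves under PBS and that under APP had r = 0.509 over genes. The fit had 1 residual and 5.86 prior degrees of freedom, and limma's standard error of a member's change lay between 0.095 and 0.20. The p-values rest on 2 animals only, and on a variance that limma draws largely from all genes rather than from each gene's own spread. The script was tested on simulated data, where false calls ran above the nominal share in most draws. Far fewer genes were given a change there than passed here, so the test does not give the share of false calls in these data.

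The members, the lists and the tests were chosen with earlier results of these data known. Compartments and roles were assigned from general knowledge. Members named with every array were, per compartment, up to 4 largest rises and 4 largest falls past the threshold, the 3 with the largest gap between calves, the 3 with the widest probe set spread, and a fixed set of main chaperones; CCT3 and others were added after their values had been seen. Alternatives were the fit without the block, each array left out, median centring, scaling to the hybridization controls, leaving out cross-hybridising probe sets, single probe sets and robust variance moderation.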

Additional observations from a re-analysis of the deposited data

How the results depend on the processing

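Several alternatives kept every count of members within 1.5 times of the reported one. These were median centring of the arrays, robust variance moderation, leaving out cross-hybridising probe sets and fitting single probe sets. Of the 33 members named with every array by the rule above, which leaves out CCT3, only DNAJB11 lost its call. This was in the fit over single probe sets. HSP90AB1 has no value without cross-hybridising probe sets. Without the replicate block, which gives up the pairing by animal, 35 members rose and 14 fell, cytosolic falls came to 7, rises in the endoplasmic reticulum to 4 and falls of regulators and partners to 10, and CALR, DNAJB1, DNAJB11 and HSPB1 lost their calls.

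Scaling to the hybridization controls changed most. The members' median became -0.611, 3 members rose and 64 fell, with 3 and 41 in the cytosol, 0 and 19 in the endoplasmic reticulum, 0 and 2 in mitochondria and 3 and 43 among regulators and partners, and 10 members differed between the calves. Of the 44 members that rose, 31 came to lie at or below 0, among them these named with every array: CANX (-0.41), DNAJA3 (-0.11), DNAJB1 (-0.46), DNAJB11 (-0.37), DNAJC3 (-0.15), HSP90AA1 (-0.10), HSP90AB1 (-0.026), HSP90B1 (-0.28), HSPA8 (-0.37), HSPA9 (-0.014), HSPD1 (-0.14), HSPE1 (-0.14) and PPIF (-0.14). This follows from subtracting 1 value per array. Whether the amount of labelled RNA or of the controls on the arrays differed between treatments was not tested.

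Leaving out 1 array, in fits on 3 arrays with no block where the lone array is assumed to vary like the others, gave 25 to 32 rises and 10 to 13 falls of members, 18 to 21 and 5 to 8 in the cytosol, 2 to 6 and 4 to 5 in the endoplasmic reticulum, 4 to 5 rises in mitochondria, 9 to 13 rises and 6 to 11 falls of regulators and partners, and a median between 0.22 and 0.27.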
